A study of Mus musculus with 2 samples.

Results

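The genes described here are 8 members of the machinery that decides whether a cell in G1 goes on to copy its DNA: the D cyclin genes Ccnd1, Ccnd2 and Ccnd3, the kinase genes Cdk4 and Cdk6, and the inhibitor genes Cdkn1a, Cdkn1b and Cdkn2c. They were chosen by name, with their levels by age and cluster already known, from the 54674 genes listed in either table of the series, and all 8 are among the 26897 genes that the adult and the postnatal day 4 (P4) tables share. The series measured RNA in single cells of mouse oviduct epithelium, strain C57BL/6, with 1 library from adult mice at estrus and 1 from P4 mice, for which the labels give no stage. The labels name no mutation, transgene or treatment in either group. Tissue was dissociated with enzymes, dead cells were sorted out, and epithelial cells were enriched with antibodies to Epcam and CD45 before 10x Chromium 3' V2 libraries were made. The labels do not say how many animals gave each library.

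As background, a D cyclin is a regulatory subunit that binds CDK4 or CDK6, and the active pair phosphorylates the retinoblastoma protein, which then releases E2F factors that switch on genes for DNA synthesis. The CIP/KIP inhibitors p21 (from Cdkn1a) and p27 (from Cdkn1b) bind cyclin and CDK complexes, while the INK4 inhibitor p18 (from Cdkn2c) binds CDK4 and CDK6 themselves. In the oviduct, multiciliated cells beat fluid along the tube and have left the cell cycle, and secretory cells make that fluid and can give rise to multiciliated cells.

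The adult library held 406 cells with 1401641 UMI (unique transcript molecules counted) and a median of 3232 per cell, and the P4 library held 263 cells with 2123202 UMI and a median of 7585. A level here is the UMI of a gene pooled over a group of cells, per 10000 UMI of the shared genes in that group, with its exact 95% Poisson interval in parentheses. Intervals cover counting error only, since each age is 1 library and cells are not replicates, so no test was run and the spread between animals is unknown. A UMI marks the 3' end of a transcript, so levels were not divided by gene length. The cells carry the authors' cluster numbers, and no barcode was shared between the libraries. Adult clusters 1 and 3 (183 and 37 cells) had levels of 133.8 and 90.9 for the summed multiciliated marker list and are called multiciliated-like. Adult clusters 0 and 4 (130 and 31 cells) had 102.7 and 425.0 for the secretory list and are called secretory-like. Adult cluster 5 (25 cells) mixed 7 cells rich in smooth muscle genes with 18 others and is kept by number, as are P4 clusters 0 and 1 (168 and 95 cells). The epithelial marker Epcam had a UMI in 61.6% of adult and 86.3% of P4 cells, and Ptprc, which encodes CD45, had 0 UMI in both libraries. The summed fibroblast list was at 7.04 at P4 and 2.27 in the adult, and doublets were not called. Since clusters were drawn from expression, differences between clusters are descriptions.

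The gene for cyclin D1, Ccnd1 (chromosome 7, 144929931 to 144939925, minus strand, GRCm38), was the D cyclin of the secretory-like adult cells. Its level was 3.13 (2.66 to 3.66) in adult cluster 0, 1.83 (0.915 to 3.28) in cluster 4 and 1.81 (1.11 to 2.80) in cluster 5. In the multiciliated-like clusters 1 and 3 the level was 0.602 (0.419 to 0.837) and 0.248 (0.0512 to 0.725). P4 clusters 0 and 1 lay between these, at 1.60 (1.39 to 1.84) and 1.20 (0.931 to 1.51). Cluster 0 was thus above both P4 clusters and both multiciliated-like clusters without overlap of the intervals, while clusters 4, 5 and the P4 clusters overlapped each other. A Ccnd1 UMI was found in 45.4% of cells of cluster 0 and in 4.37% of cells of cluster 1. With every cell thinned to 1000 UMI, these shares were 25.2% and 0.719%.

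The Ccnd1 counts of 2 clusters rested on few cells, which were looked at after the values were seen. In cluster 1, 27 of the 35 Ccnd1 UMI came from 1 cell, which held 16207 UMI, the most of any adult cell. The other 182 cells of that cluster had 8 UMI and a level of 0.141 (0.0611 to 0.279). The 8 cells of cluster 1 with any Ccnd1 UMI had a multiciliated list level of 63.8 and a secretory list level of 47.7, against 142.1 and 6.97 in the 175 cells without one, and their median depth was 6230 against 3043 UMI. Whether these are doublets was not tested. In cluster 5, 19 of 20 Ccnd1 UMI came from the 7 cells with at least 10 smooth muscle UMI, where the level was 3.34 (2.01 to 5.21). The other 18 cells had 1 UMI, a level of 0.188 (0.00475 to 1.04), so nearly all the Ccnd1 of cluster 5 lay in its smooth muscle-rich cells.

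Ccnd2, for cyclin D2 (chromosome 6, 127125162 to 127152193, minus strand), was highest at P4. Its level was 5.17 (4.60 to 5.79) in P4 cluster 1 and 1.84 (1.61 to 2.09) in P4 cluster 0. In the adult it was 1.57 (0.946 to 2.45) in cluster 3, 1.36 (0.761 to 2.24) in cluster 5 and 0.292 (0.170 to 0.468) in cluster 1. The secretory-like clusters were lowest, with 0.139 (0.0558 to 0.286) in cluster 0 and 0 UMI in the 31 cells of cluster 4, and at this depth up to 9.68% of such cells could still show a UMI (3 counts of 31; counting error only). P4 cluster 1 stood above all other clusters, and the intervals of P4 cluster 0 and adult clusters 3 and 5 overlapped. In cluster 3, 19 UMI came from 7 of 37 cells, so this level also rests on few cells.

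Ccnd3, for cyclin D3 (chromosome 17, 47505051 to 47599691, plus strand), varied least of the D cyclin genes. Its level ran from 0.873 (0.634 to 1.17) in adult cluster 0 through 1.05 in cluster 1 and 1.27 in cluster 5 to 1.74 (1.08 to 2.66) in cluster 3. P4 clusters 0 and 1 were at 0.966 and 1.28. These intervals all overlapped. Cluster 4 had 1 UMI, a level of 0.167 (0.00422 to 0.928). That interval still met that of cluster 0 but lay below those of adult cluster 3 and P4 cluster 1 (1.01 to 1.61).

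**Figure D1:**
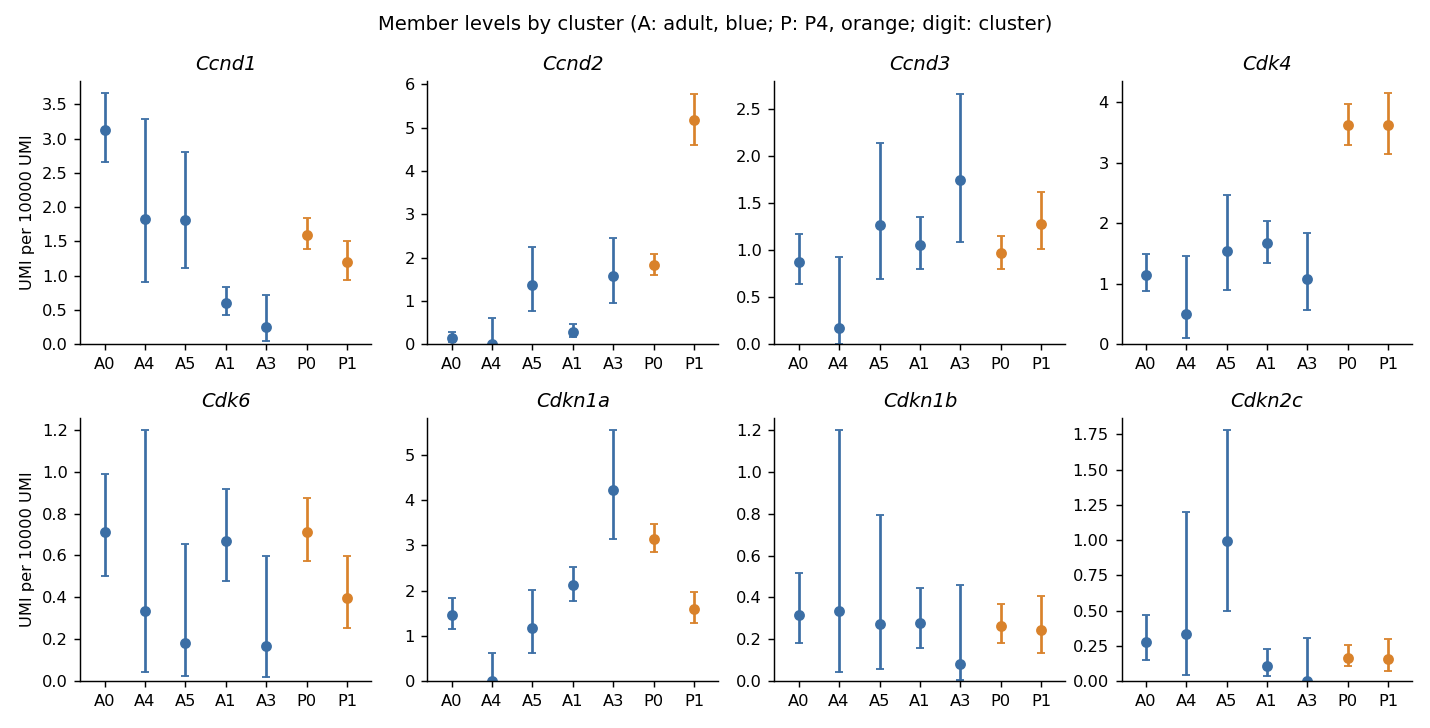
Level of each member (UMI per 10000 UMI, linear axes from 0, one scale per gene) in the 5 adult clusters (A, blue) and the 2 P4 clusters (P, orange); points are pooled levels and bars exact 95% Poisson intervals. Ccnd1 is highest in adult cluster 0 (3.13), Ccnd2 in P4 cluster 1 (5.17), Cdk4 in both P4 clusters (3.62 each) and Cdkn1a in adult cluster 3 (4.22).

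Which D cyclin made up most of the D cyclin UMI therefore differed by cluster. Ccnd1 took 75.6% (exact binomial interval 69.2 to 81.3) of the 209 D cyclin UMI in adult cluster 0. Ccnd3 took the largest part in the multiciliated-like clusters, 54.0% (44.4 to 63.4) of 113 UMI in cluster 1 and 48.8% (33.3 to 64.5) of 43 UMI in cluster 3, where Ccnd2 held 44.2% (29.1 to 60.1). Without the deepest cell of cluster 1, Ccnd3 took 70.2% (59.3 to 79.7) of 84 UMI there and Ccnd1 9.52%. In P4 cluster 1, Ccnd2 took 67.6% (63 to 71.9) of 441 UMI, and in P4 cluster 0 it took 41.7% (37.6 to 46.0) of 556 UMI beside 36.3% (32.3 to 40.5) for Ccnd1. The summed D cyclin level was 7.65 in P4 cluster 1, 4.40 in P4 cluster 0, 4.15 in adult cluster 0 and 1.94 in adult cluster 1. Without its deepest cell, adult cluster 1 was at 1.49. The clusters thus differed in amount as well as in kind.

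**Figure D2:**
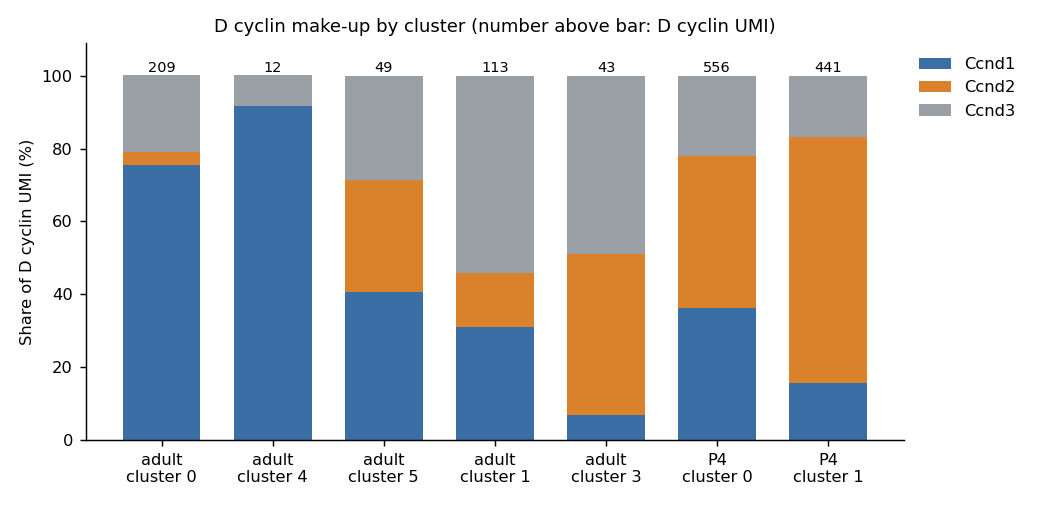
Share of D cyclin UMI (percent, y axis) from Ccnd1 (blue), Ccnd2 (orange) and Ccnd3 (grey) in each cluster; the number above a bar is the D cyclin UMI behind it. Ccnd1 fills 75.6% of the bar of adult cluster 0 and Ccnd2 67.6% of that of P4 cluster 1, and the bar of adult cluster 4 rests on 12 UMI. The bar of adult cluster 1 includes 27 Ccnd1 UMI from 1 deep cell.

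Cdk4, for the D cyclin-dependent kinase 4 (chromosome 10, 127063534 to 127067920, plus strand), was even within P4 and lower in every adult cluster. Its level was 3.62 in both P4 clusters, with intervals of 3.29 to 3.97 in cluster 0 and 3.15 to 4.15 in cluster 1. Adult levels were 1.67 (1.35 to 2.04) in cluster 1, 1.54 (0.898 to 2.47) in cluster 5, 1.15 (0.874 to 1.49) in cluster 0, 1.08 (0.573 to 1.84) in cluster 3 and 0.50 (0.103 to 1.46) in cluster 4. No adult interval reached those of P4, and the adult intervals overlapped each other. After thinning to 1000 UMI, 24.3% of P4 and 12.3% of adult cells had a Cdk4 UMI, and before thinning 79.8% and 31.3%. The last bases of Cdk4 overlap Tspan31 on the other strand, and whether the counting used strand is not given in the sources used here. Tspan31 itself had a level of 0.843 at P4 and 1.04 in the adult (ratio interval 0.642 to 1.03).

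The 250 bases before the Cdk4 start are shown for the copies they hold of CACGTG, the E-box that MYC-family proteins are known to bind. RefSeq's promoter table on GRCm38.p6 matched 6 of the 8 members, and the window below is chr10:127063285-127063534 on the plus strand, with each CACGTG in capitals.
Cdk4 upstream window: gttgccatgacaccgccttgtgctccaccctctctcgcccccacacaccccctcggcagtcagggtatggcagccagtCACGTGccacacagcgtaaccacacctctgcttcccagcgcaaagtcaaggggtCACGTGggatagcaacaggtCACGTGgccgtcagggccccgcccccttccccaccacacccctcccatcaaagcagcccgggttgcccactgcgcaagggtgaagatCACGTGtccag
The window holds 4 copies of CACGTG, a sequence that reads the same on both strands, the first bases of which lie 172, 118, 98 and 11 bases before the start. Of all 32851 windows of this length in the table, 6.02% hold at least 1 copy and 0.0213% (7 windows) hold at least 4. The window of Cdk6 holds 1 copy, and none is found in those of Cdkn1a, Cdkn1b, Cdkn2c and Ccnd3. Such matches describe letters only, since no binding was measured. Of the 6 MYC-family genes, 2 were at least 2-fold higher at P4 and 1 at least 2-fold lower. The other 3, Myc, Max and Mxd4, were within 2-fold. Of all 7283 genes with a UMI in at least 10% of cells at either age, 10.4% were higher and 11.5% lower by as much. A link to Cdk4 was not tested. Mycl was at 1.01 at P4 and 0.269 in the adult, Mycn at 0.402 and 0.116, and Mxi1, for a protein that opposes MYC, at 0.359 and 0.908.

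Cdk6 (chromosome 5, 3341485 to 3531008, plus strand), for the second D cyclin-dependent kinase, was low throughout. Its level was 0.714 (0.50 to 0.989) in adult cluster 0, 0.671 (0.477 to 0.917) in cluster 1 and 0.713 (0.573 to 0.876) in P4 cluster 0. P4 cluster 1 was at 0.399 (0.253 to 0.598), and adult clusters 3, 4 and 5 had 2 UMI each. Unlike Cdk4, it was level between the ages, at 0.614 (0.506 to 0.739) at P4 and 0.588 (0.467 to 0.731) in the adult. Of the 81 adult Cdk6 UMI, 8 came from the same deep cell of cluster 1 that held 27 Ccnd1 UMI.

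The inhibitor gene Cdkn1a (chromosome 17, 29090976 to 29100727, plus strand), for the p53 target p21, was highest in adult cluster 3. Its level there was 4.22 (3.14 to 5.55), against 2.12 (1.76 to 2.52) in the other multiciliated-like cluster, cluster 1. The secretory-like cluster 0 was at 1.47 (1.15 to 1.84), cluster 5 at 1.18 (0.628 to 2.02), and cluster 4 had 0 UMI in 31 cells, an upper limit of 0.615. At P4 the level was 3.15 (2.85 to 3.48) in cluster 0 and 1.60 (1.29 to 1.96) in cluster 1. P4 cluster 0 and adult cluster 3 overlapped, and both were above the remaining clusters.

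Dissociation stress genes, immediate early and heat shock genes such as Fos and Jun that tissue handling can raise, were highest in the adult cluster with the most Cdkn1a and lowest in that with 0 UMI of it, but had another order in between. Their summed level was 197.8 in cluster 3, 149.6 in cluster 0, 106.7 in cluster 5, 63.4 in cluster 1 and 44.5 in cluster 4. Inside cluster 1, Cdkn1a was at 2.65 in the 91 cells above the cluster's median stress level and 1.32 in the other 92 cells (ratio interval 1.32 to 3.11). Inside cluster 3 the values were 5.58 and 2.56 (1.15 to 4.36), and inside cluster 0 they were 1.64 and 1.27 (0.794 to 2.13). P4 cluster 0 had the reverse order, 2.82 above and 3.45 below the median (0.666 to 1.0). P4 cluster 1 (1.82 and 1.39, 0.850 to 2.02) and adult cluster 5 (1.78 and 0.766, 0.669 to 9.01) had more above it, with intervals that hold 1. The cells above the median were also deeper in adult cluster 1 (median 3525 against 2498 UMI) and cluster 3 (4088 against 1645). The part of stress in the Cdkn1a levels was not tested. Cluster 3 exceeded cluster 1 by at least 2-fold in 6 of 11 measured p53 response genes, beside 11.6% of all 5367 measured genes. The median log2 fold of the 11 was 1.42, against 0.01 over all measured genes. The 6 genes included Btg2 (11.1 against 2.39), which is also an early response gene, and Gadd45a (2.65 against 0.533). Bbc3 (0.910 against 0.258, 11 and 15 UMI) and Plk2 (0.414 against 0.086, 5 UMI each) were also among them, from few counts. Mdm2, which encodes the ubiquitin ligase of p53, was not among them, at 1.24 and 1.15.

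RefSeq lists 2 starts for Cdkn1a, and the 250 bases before the upstream one are shown for the p53 response element they hold, in capitals (GRCm38.p6, chr17:29090729-29090978, plus strand).
Cdkn1a upstream window: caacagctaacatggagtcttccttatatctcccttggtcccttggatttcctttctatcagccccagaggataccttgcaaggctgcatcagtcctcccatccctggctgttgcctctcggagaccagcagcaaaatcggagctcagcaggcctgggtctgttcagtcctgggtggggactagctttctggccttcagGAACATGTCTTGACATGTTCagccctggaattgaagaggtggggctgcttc
The match begins 51 bases before this start and differs from the 20-base p53 consensus, searched as both decamers without a spacer, at 1 position. The consensus is its own reverse complement, so 1 strand covers both, and 25 of 32851 windows (0.0761%) hold a match with at most 1 mismatch. The window before the other start, chr17:29093519-29093768, holds none, nor do those of the other 5 members in the table. Binding was not measured, and the match says nothing about which start these cells used.

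Cdkn1b (chromosome 6, 134920401 to 134925513, plus strand), for p27, had no cluster apart from the rest. Its level was 0.317 (0.181 to 0.515) in adult cluster 0, 0.275 in cluster 1, 0.261 in P4 cluster 0 and 0.243 in P4 cluster 1, and clusters 3, 4 and 5 had 1 to 3 UMI each. Cdkn2c (chromosome 4, 109660876 to 109667189, minus strand), for p18, was highest in adult cluster 5, at 0.997 (0.498 to 1.78). Elsewhere it was 0.333 (0.0404 to 1.20) in cluster 4, 0.278 (0.152 to 0.466) in cluster 0, 0.166 and 0.156 in P4 clusters 0 and 1, and 0.103 in cluster 1, with 0 UMI in the 37 cells of cluster 3. In cluster 5, 9 of the 11 Cdkn2c UMI lay in the 18 cells with fewer than 10 smooth muscle UMI (level 1.69, 0.772 to 3.2). The 7 smooth muscle-rich cells were at 0.351 (0.0425 to 1.27), and these intervals overlap. A Cdkn2c UMI was found in 27.8% of the 18 cells and 28.6% of the 7. The 18 cells were shallower, with a median of 1914.5 UMI against 7757 in the 7, so these shares are not at equal depth. With cells thinned to equal depth, the shares were 21.4% (4.66 to 50.8) of 14 cells and 14.3% (0.361 to 57.9) of 7. Unlike for Ccnd1, these 9 and 2 UMI are too few to say whether Cdkn2c differed between these parts of the cluster.

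The comparison of ages asked how the members differ between young and mature epithelium. Ccnd2 and Cdk4 were at least 2-fold higher at P4, no member was at least 2-fold lower, and 6 were within 2-fold. Of all 7283 measured genes, those with a UMI in at least 10% of cells on either side, 21.8% differed at least 2-fold (10.4% higher and 11.5% lower at P4), so the members' count is near the background. Ccnd2 was at 2.88 (2.64 to 3.14) at P4 and 0.421 (0.320 to 0.545) in the adult, a ratio of 6.84 (5.21 to 9.13). Cdk4 was at 3.62 and 1.37, a ratio of 2.65 (2.25 to 3.13). Cdkn1a was 1.40 times as high at P4 (1.21 to 1.64), and Ccnd1, Ccnd3, Cdk6, Cdkn1b and Cdkn2c had ratio intervals that hold 1. The median log2 fold was 0.05 over the members and 0.09 over all measured genes.

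Set against the secretory-like adult cells alone, the picture was sharper. Ccnd2 reached a ratio of 23.2 (11.2 to 58.0), from 7 UMI in 161 adult cells, and Cdk4 one of 3.35 (2.57 to 4.43). Ccnd1 was lower at P4, at 1.47 against 3.0 (ratio 0.492, 0.404 to 0.599), although with the pseudocount of 0.1 its fold stayed within 2. Cdkn1a was at 2.66 against 1.31 (ratio 2.03, 1.59 to 2.63), and its fold with the pseudocount was 1.96. With the pseudocount, again 2 of 8 members were at least 2-fold higher and none lower. Of 7048 measured genes, 14.6% were higher and 6.46% lower by as much (21.0% in either direction). This comparison shares the P4 cells with the one above, so they are not independent. The fibroblast list was higher at P4. Without the 25% of cells of each library richest in it, the Ccnd2 ratio interval was 6.22 to 13.4 and that of Cdk4 2.27 to 3.38, and within P4 the fibroblast-rich cells had Ccnd2 at 2.77 and the others at 2.91. Only 12 P4 cells held no fibroblast UMI. Against the 264 such adult cells they had Ccnd2 at 1.35 and 0.321 (4 and 22 UMI, ratio interval 1.05 to 12.4) and Cdk4 at 2.36 and 1.25 (7 and 86 UMI, 0.735 to 4.05), so for Cdk4 that interval holds 1.

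**Figure D3:**
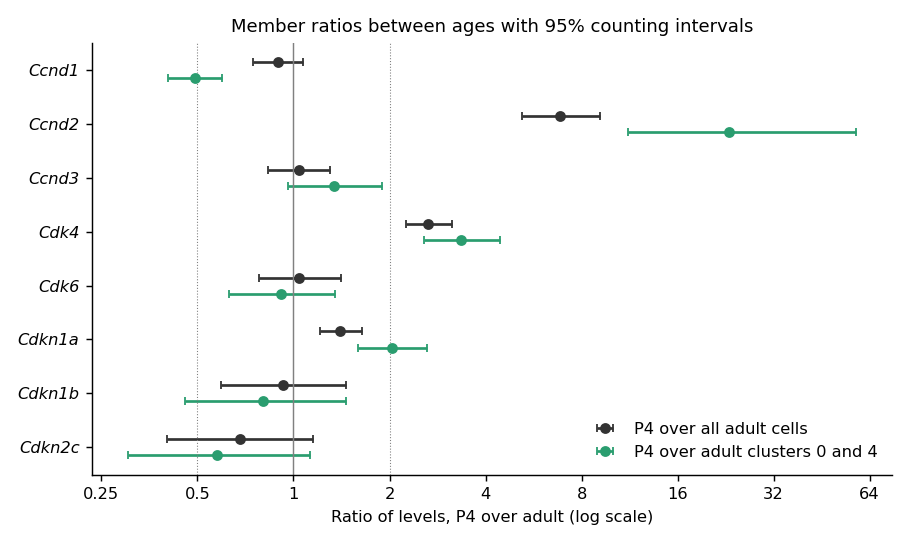
Ratio of each member's level at P4 to that in all adult cells (black) and in adult clusters 0 and 4 (green), on a log axis; bars are exact 95% counting intervals, the solid line marks equal levels and the dotted lines 2-fold. Points are ratios without the pseudocount. Ccnd2 (6.84 and 23.2) and Cdk4 (2.65 and 3.35) lie past the upper dotted line. Against clusters 0 and 4, Cdkn1a (2.03) lies just past the upper and Ccnd1 (0.492) just past the lower dotted line. Against all adult cells Ccnd1 lies at 0.893.

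Among adult clusters, the multiciliated-like cells (1 and 3) had Ccnd1 at 0.541 against 3.0 in the secretory-like cells (ratio 0.181, 0.124 to 0.258). Of the 38 Ccnd1 UMI behind the 0.541, 27 came from the deepest cell of cluster 1. Without that cell, cluster 1 was at 0.141, so this ratio leans on 1 cell. Cdkn2c was also at least 2-fold lower, at 0.0854 against 0.284, and Ccnd2 at least 2-fold higher, at 0.513 against 0.124, while 35.6% of 5077 measured genes differed as much (24.5% higher and 11.1% lower). That background holds genes past the 10% filter, which 5 members passed, and of these 1, Ccnd1, was lower and none higher. Cdkn1a (2.48 against 1.31) and Cdk4 (1.57 against 1.08) were higher by less than 2-fold. Cluster 3 differed from cluster 1 by Ccnd2 (1.57 against 0.292, ratio 2.64 to 11). Cdk6 was at least 2-fold lower in cluster 3, at 0.165 (0.0200 to 0.598) against 0.671 (ratio 0.0288 to 0.952), from 2 UMI there. Without its deepest cell, which held 8 Cdk6 UMI, cluster 1 was at 0.548 (0.373 to 0.778), an interval that overlaps that of cluster 3. Ccnd1, Cdkn1b and Cdkn2c were also lower at least 2-fold in cluster 3, each with 0 to 3 UMI there, so 1 member was higher and 4 lower, beside 11.6% and 9.15% of 5367 measured genes (20.8% in all). Of the 5 members past the 10% filter, 1 was higher and 1 lower. The Ccnd1 part of that count came from the 1 deep cell of cluster 1, and without it the log2 fold was 0.53, not -1.01.

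Cluster 4 had 60021 UMI in all, and 4 members, Ccnd2, Ccnd3, Cdk4 and Cdkn1a, were at least 2-fold lower there than in cluster 0, beside 20.9% of 4383 measured genes that were lower and 8.97% higher (29.9% in all). Ccnd2 was not among the 6 members past the 10% filter, of which 3 were lower. Of these 4 ratios, that of Cdkn1a alone had an interval below 1 (0 to 0.429). Cluster 5 had Ccnd2 (ratio 9.79, 3.76 to 28.4) and Cdkn2c (3.59, 1.48 to 8.51) higher and Cdk6 (0.254, 0.0296 to 0.986) lower than cluster 0, beside 14.8% of 5720 measured genes that were higher and 8.44% lower (23.2% in all). In the 18 cells of cluster 5 with fewer than 10 smooth muscle UMI, Ccnd2 was at 0.938 (0.304 to 2.19).

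At P4, cluster 1 differed from cluster 0 by at least 2-fold in Ccnd2 alone of the members, against 3.66% of 7625 measured genes (1.74% higher and 1.91% lower). The ratio was 2.81 (2.36 to 3.35). Cdkn1a (0.506, 0.399 to 0.636), Cdk6 (0.560, 0.338 to 0.893) and Ccnd1 (0.748, 0.561 to 0.988) were lower in cluster 1 by less than 2-fold, although Cdk6 had a log2 fold of 0.39 after thinning to 1000 UMI. Cdk4 had a ratio of 1.0 (0.846 to 1.18). The list of multiciliated cell regulators was lower in cluster 1 for 4 of 5 measured genes, among them Foxj1 (0.243 against 1.37), the master gene of motile cilia, and Mcidas (0.0173 against 0.317), which starts the ciliation program.

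In counts at full depth, Cdkn1a at P4 went with Foxj1, a split made after the values were seen. The 65 P4 cells with a Foxj1 UMI had Cdkn1a at 3.81 (3.33 to 4.35), and the 198 without had 2.12 (1.87 to 2.39), a ratio interval of 1.5 to 2.16. Ccnd2 had the reverse order, 1.92 against 3.34 (0.465 to 0.711), as did Ccnd1, 1.11 against 1.64 (0.505 to 0.898), while Cdk4 was at 3.39 and 3.73 (0.767 to 1.08). The cells with Foxj1 were deeper, with a median of 8782 against 7087 UMI, so the comparison was also made per cell. The mean over cells, in which each cell counts equally, was 3.56 with and 2.27 without Foxj1 for Cdkn1a. At 1000 UMI per cell a Cdkn1a UMI was found in 16.9% (8.76 to 28.3) and 16.7% (11.8 to 22.6) of cells. Inside P4 cluster 0 the shares were 16.7% and 20.2%. The Cdkn1a UMI left were 14 in the 65 cells with Foxj1 and 39 in the 198 without. Inside P4 cluster 0 they were 12 in 54 cells and 27 in 114. At that depth, from these few UMI of 1 random draw, neither shares nor counts showed the difference in level. In the same draw Cdk4 had a UMI in 12.3% (5.47 to 22.8) of cells with and 28.3% (22.1 to 35.1) of cells without Foxj1. Its full-depth levels, 3.39 and 3.73, were near each other, so the draw and the levels can differ. At full depth, the Cdkn1a levels inside P4 cluster 0 were 4.2 and 2.45 (1.40 to 2.10), but those of Ccnd2 were 1.68 and 1.94 (0.653 to 1.13). Among P4 cells without Foxj1, Ccnd2 was still at 5.48 in cluster 1 and 1.94 in cluster 0 (2.3 to 3.47), and Cdkn1a at 1.61 and 2.45 (0.499 to 0.860). The P4 cells without Foxj1 had a Cdkn1a ratio interval of 0.937 to 1.33 against the whole adult library, which keeps its multiciliated-like cells, and of 1.24 to 2.12 against adult clusters 0 and 4 (2.12 against 1.31).

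P4 cells were also ordered by the summed level of 28 S, G2 and M phase genes, which reads how many transcripts of DNA synthesis and mitosis a cell holds. The list was at 11.9 at P4 and 1.22 in the adult. The top 25% of P4 cells (66 cells above 12.4) were compared with the bottom 50% (132 cells at or below 7.27). These are ranges of a score and not cell types, with 31 cells within 2 of the upper limit and 86 within 2 of the lower. With the pseudocount of 0.1, no member differed at least 2-fold, against 4.44% of 8043 measured genes (3.69% higher and 0.746% lower). Ccnd1 was at 2.0 in the rich and 1.30 in the poor cells (ratio 1.54, 1.17 to 2.02), and Ccnd2 at 2.20 and 2.90 (0.758, 0.605 to 0.945). Cdk6 was at 0.432 and 0.710 (0.609, 0.362 to 0.992) and Cdk4 at 4.27 and 3.57 (1.19, 1.0 to 1.42). Cdkn2c was at 0.288 and 0.106 (2.71, 1.13 to 6.95), from 16 and 9 UMI. Its ratio thus passed 2, but with the pseudocount its fold was 1.88. Cdkn1a was about even, at 2.68 and 2.46 (0.877 to 1.35). The cells between the limits were no midpoint, since Ccnd2 was highest there, at 3.71 (3.17 to 4.33), and Cdk4 lowest, at 2.89 (2.41 to 3.44). The rich cells were deeper, with a median of 9409 UMI against 7093.5.

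**Figure D4:**
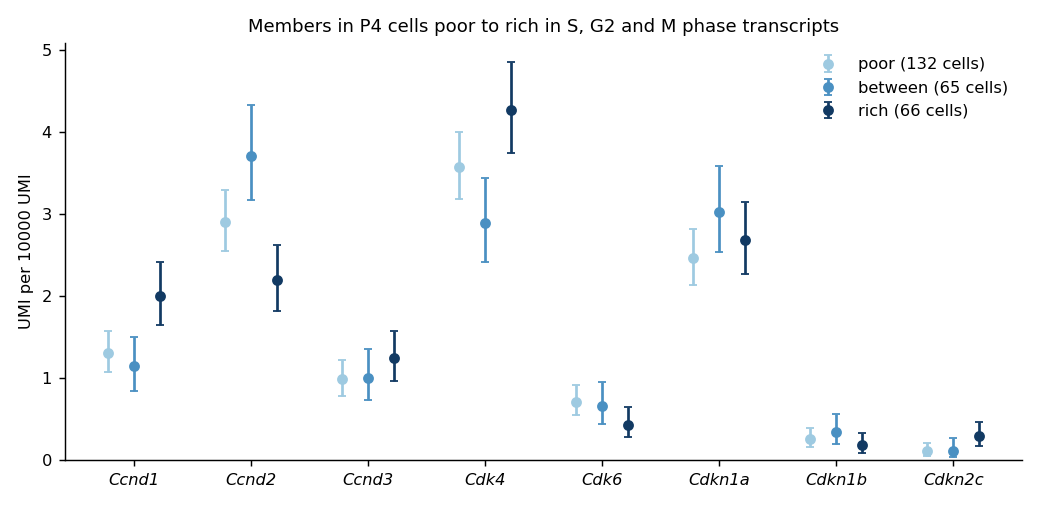
Level of each member (UMI per 10000 UMI, axis from 0) in P4 cells poor in, between and rich in S, G2 and M phase transcripts (light to dark blue); points are pooled levels and bars exact 95% Poisson intervals. Ccnd1 is highest in the rich cells (2.0), Ccnd2 in those between (3.71), and Cdkn1a is nearly even (2.46 to 3.03).

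Genes of the downstream steps were compared in the same cells, which were chosen by transcripts that cycle with them, so their differences are descriptions. Of 7 measured genes of the cyclin E step, which follows that of the D cyclins, 2 were at least 2-fold higher in the rich cells, Ccne2 at 0.576 against 0.0592 (ratio interval 3.77 to 32) and Cks1b, for a CDK-binding subunit, at 2.99 against 1.22 (1.91 to 3.17). Of 10 measured genes of the RB and E2F family 2 were higher, E2f1 at 0.522 against 0.130 and Rbl1 at 0.324 against 0.0947. None in either list was at least 2-fold lower. E2f1, Rbl1 and Ccne2 are known E2F targets. Of 5 measured regulators of multiciliated cells, 4 were also higher in the rich cells, among them Myb (1.04 against 0.260) and Foxj1 (1.28 against 0.532). Beside these counts, 3.69% of all 8043 measured genes were at least 2-fold higher in the rich cells and 0.746% lower. A gene can pass the 10% filter through the deeper rich cells alone.

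Between the ages, 4 of 5 measured genes of the cyclin E step were at least 2-fold higher at P4, beside 10.4% of all 7283 measured genes. A gene can pass the 10% filter through the deeper P4 cells alone, as Skp2 did, so such counts lean to genes high at P4. Skp2, which marks p27 for degradation, had 37 UMI at P4 and 0 in the adult, at least 9.23-fold higher against a floor of 3 adult counts (exact lower limit of the ratio 7.14), and Cks1b was at 1.83 against 0.443. Ccne1 was at 0.212 against 0.0218 (3 adult UMI, ratio interval 3.09 to 49.2), and Ccne2, which was under the 10% filter, at 0.223 against 0.0363. In the RB and E2F family 2 of 7 were higher, E2f1 (0.256 against 0.0581) and Tfdp1 (1.12 against 0.0218), the latter with 206 and 3 UMI (ratio interval 17.3 to 251.2). The adult table lists 27998 genes and that of P4 53573, so the gene models behind a symbol can differ, and their part in this value was not tested. The retinoblastoma gene Rb1 was at 0.130 (0.0836 to 0.194) at P4 and 0.182 (0.118 to 0.268) in the adult. All 7 measured genes for CDK assembly and D cyclin turnover were within 2-fold. Of 13 measured p53 response genes 1 was higher at P4, Trp53 itself (1.19 against 0.378), and 1 lower, Trp53inp1 (0.0652 against 0.647).

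Of the 5 other CDK inhibitor genes, some were higher and some lower at P4. Cdkn1c, for p57, the remaining CIP/KIP inhibitor and an imprinted gene, was at 1.29 (1.13 to 1.47) at P4 and 0.145 (0.0887 to 0.224) in the adult, a ratio of 8.91 (5.64 to 14.8). In P4 clusters 0 and 1 it was at 1.17 and 1.56. Cdkn2b, for the INK4 inhibitor p15, was at 0.0598 (0.0299 to 0.107) at P4 and 0.668 (0.539 to 0.820) in the adult, a ratio of 0.0895 (0.0432 to 0.168). Its adult UMI lay mostly in the multiciliated-like clusters, at 1.01 in cluster 1 and 1.24 in cluster 3, against 0.278 in cluster 0. Cdkn2a had 18 adult UMI, 14 of them in 7 cells of cluster 0, and 1 at P4 (ratio interval 0.000998 to 0.263). Cdkn2d was at 0.277 and 0.225. Cdkn3, for a phosphatase that acts on CDKs, had 28 UMI at P4, 22 of them in the rich cells, and 0 in the adult, at least 6.98-fold higher against the same floor (exact lower limit 5.31).

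**Figure D5:**
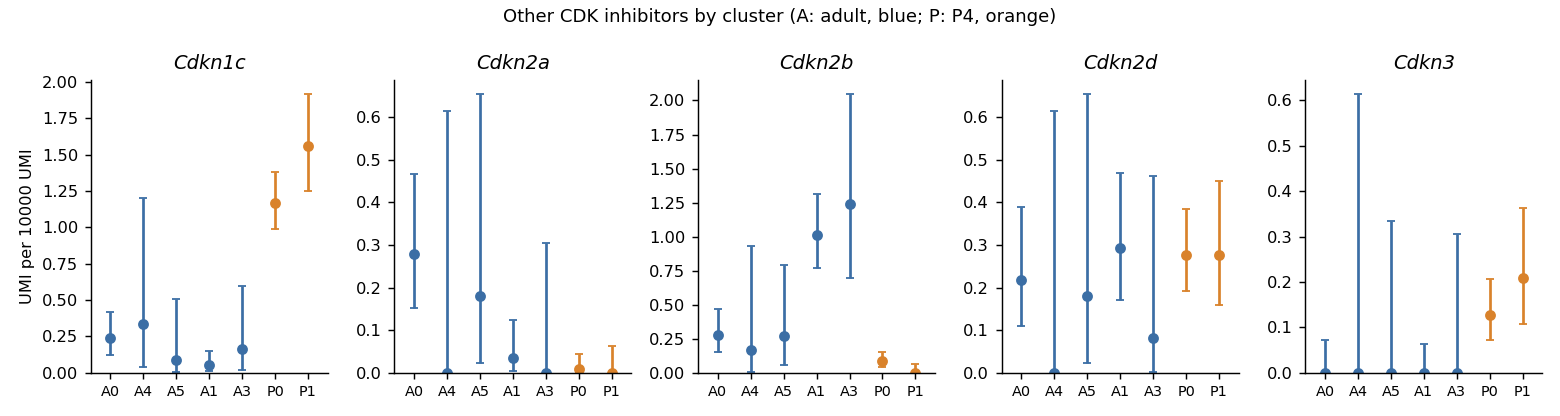
Level of the 5 other CDK inhibitor genes (UMI per 10000 UMI, linear axes from 0, one scale per gene) in the adult (A, blue) and P4 (P, orange) clusters, with exact 95% Poisson intervals. Cdkn1c is above 1 in the P4 clusters alone, Cdkn2b is highest in adult clusters 1 and 3 (1.01 and 1.24), and Cdkn3 has 0 UMI in every adult cluster.

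At P4, cells with and without Ccnd1 held Ccnd2 at shares whose intervals overlapped. A Ccnd2 UMI was found in 62.8% (53.2 to 71.7) of the 113 P4 cells with Ccnd1 and in 70.0% (62.0 to 77.2) of the 150 without. At 1000 UMI per cell these shares were 25% (11.5 to 43.4) and 25.5% (20 to 31.7). In the adult secretory-like cells, 1 of 68 cells with Ccnd1 and 4 of 93 without had a Ccnd2 UMI.

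Across the 7 clusters, the genes whose log2 level followed a member most closely were taken from 2637 genes of sufficient level. These are descriptions over 7 points from 2 libraries, which share depth and age. For Ccnd1 they were Abhd17a, Ppp1r1b and Hpcal1 (Pearson r 0.97, 0.96 and 0.96), and for Ccnd2 Irf2bpl, Pafah1b3 and Klf5 (0.97, 0.95 and 0.94). For Ccnd3 they were Plp2, Snf8 and Cirbp (0.98, 0.97 and 0.97). For Cdk4 they were Hmgb2, Tpr and Ddx21 (0.99, 0.98 and 0.98), and Hmgb2, a chromatin protein gene, was at 7.65 and 7.35 in the P4 clusters and 0.333 to 1.72 in the adult ones. For Cdk6 they were Copz1, Timm13 and Idh1 (0.93, 0.93 and 0.89). Cdkn1a was followed by Ctnna1, Fam120a and H2afy (0.99, 0.98 and 0.98), Cdkn1b by App, Gsta4 and Atraid (0.98, 0.97 and 0.97) and Cdkn2c by Cpe, Slc50a1 and Myl6 (0.96 each). Among the members, Ccnd3 and Cdkn1a were the closest pair (r 0.93), followed by Ccnd1 and Cdkn1b (0.84) and Ccnd2 and Cdk4 (0.81), while Ccnd1 and Ccnd2 had r -0.32. Some of these points rest on few UMI. In adult cluster 4 Cdkn1a had 0 and Ccnd3 1 UMI, and in cluster 3 Ccnd1 had 3 and Cdkn1b 1. How much of r such clusters carry was not tested.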

How the data were processed

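The authors deposited raw counts (UMI per gene and cell, not normalized) for the adult and P4 libraries and a merged table, with a cluster number per cell. Cell Ranger, without a version, Seurat 2.3.4 and mm10 are listed, per the submitters' processing notes. The labels give 1 library per age, so no p-value was computed. Of 807 adult columns, 401 barcodes occur under both prefixes, with totals that differ by a ratio of 0.974 to 1.04, and each of the 406 barcodes was counted once.

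Levels are pooled counts per 10000 UMI of the 26897 genes in both tables, so totals omit 1.79% of UMI in the adult and 13.4% at P4. A count of 3, the floor, equals 0.0218 in the adult and 0.0163 in the P4 library. Intervals are exact at 95% (Poisson for levels, conditional binomial for ratios, Clopper-Pearson for shares), and cover counting error only. Folds used a pseudocount of 0.1 per 10000, and a gene was called at 2-fold and measured with a UMI in 10% of cells on either side. Thinning took cells of at least 1000 UMI (318 adult and 263 P4 cells), with 1 random draw per cell. Doublets were not called. The members, lists, comparisons and rules were chosen with earlier results of these data known. The text names all members, from each list up to 4 genes with the largest folds whose ratio interval excludes 1 (Mdm2 and Rb1 were added after their values were seen), and the 3 genes most like each member over the 7 clusters, from genes with a level of at least 1 in a cluster. Counts of list members use the measured genes. Python 3.11.15, numpy 2.4.6, pandas 2.3.3 and scipy 1.17.1 were used, and the script for folds was tested on simulated data. Gene positions come from GENCODE M21 and sequences from RefSeq, both on GRCm38.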

Additional observations from a re-analysis of the deposited data

How the results depend on the processing

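Each value was recomputed under 9 to 13 other settings per comparison, 4 kinds of which were chosen after seeing the data (without the deepest adult cell, without P4 cells with Foxj1, with totals over all genes within an age, and without the 25% of cells of each library richest in fibroblast genes). Over 13 settings the log2 fold at P4 stayed between 1.88 and 3.11 for Ccnd2 and between 1.05 and 1.59 for Cdk4. Totals without ribosomal protein and mitochondrial genes gave 2.74 and 1.53, and totals over all genes gave 2.34 and 1.17. Of the log2 folds of members, 590 stayed within the counting interval of the value reported, 70 moved out of it and 4 of at least 2-fold changed sign, all in adult cluster 3 over 1. Of the folds reported as within 2-fold, 61 also changed sign, among them Cdkn1a at P4 over adult, at -4.48 from 6 P4 cells. Cdkn1b had 0.20 in cluster 3 over 1 when thinned to 1000 UMI, and Ccnd1 0.93 without cells with UMI of 2 or more non-epithelial genes, 0.73 without the deepest 5% of cells and 0.53 without the deepest adult cell.

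Counts of members past 2-fold moved as follows, and the cause was not tested. The pseudocount of 0.5 gave 1 for adult clusters 1 and 3 over 0 and 4, 2 for cluster 4 over 0, 1 for 3 over 1 and 1 for 5 over 0. Thinning gave 3 for adult cluster 3 over 1, 5 for 5 over 0 and 1 for the rich over the poor P4 cells. Without the deepest 5% of cells the count was 3 for cluster 3 over 1 and 1 for rich over poor, and without the deepest adult cell 2 for 3 over 1. Leaving out smooth muscle-rich cells gave 5 for cluster 5 over 0, leaving out the 25% of P4 cells richest in S, G2 and M phase genes gave 2 for P4 cluster 1 over 0, and leaving out the fibroblast-rich cells gave 1 for rich over poor. Without cells with UMI of 2 or more non-epithelial genes, 6 P4 and 245 adult cells were left, and the counts were 6 (P4 over adult), 7 (P4 over adult clusters 0 and 4), 2 (cluster 4 over 0), 3 (3 over 1), 5 (P4 cluster 1 over 0, from 2 and 4 cells) and 2 (rich over poor, from 1 and 2 cells). No paired analysis was possible because each age is 1 library.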

Other observations

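The authors' merged clustering of both ages places a few cells with those of the other age, and Cdkn1a was high in them. The 14 P4 cells in merged cluster 0, which otherwise holds 197 adult cells, had Cdkn1a at 7.44 (5.88 to 9.28), against 2.35 (2.12 to 2.60) in the 225 P4 cells of merged cluster 1. Their Ccnd2 level was 1.05 against 3.07 and their Cdk4 level 1.91 against 3.72. Merged cluster 6, with 21 adult cells, had Cdkn1a at 4.45 and Ccnd2 at 1.92.

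In the adult secretory-like cells, 32.4% (21.5 to 44.8) of 68 cells with a Ccnd1 UMI and 15.1% (8.48 to 24.0) of 93 without had a Cdkn1a UMI. At 1000 UMI per cell these shares were 15.6% and 9.28%, and the intervals overlapped at both depths.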
